A study of Mus musculus with 4 samples.

Results

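The Fc gamma receptors, the proteins through which leukocytes bind IgG, were examined as 5 genes of the 27998 listed in the nasal mucosa data: Fcgr1, Fcgr3 and Fcgr4, whose products activate the cell, Fcgr2b, whose product inhibits it, and Fcgrt, the neonatal Fc receptor. They were chosen by gene symbol, a rule that uses no measured value, though earlier results of these data were known by then. All 5 were detected. The data are single-cell RNA libraries of CD45+ cells (leukocytes) from the nasal mucosa of C57BL/6 mice aged 8 weeks, 1 library for each of 4 groups. Without allergen they are Vehicle and Ribavirin, and with allergen Vehicle-OVA and Ribavirin-OVA. The allergen was ovalbumin (OVA), to which mice of this rhinitis model are sensitised by injection with alum before they are challenged through the nose. Ribavirin is an antiviral drug, given per the series title as a spray against commensal viruses. The dose and timing of ribavirin and the number of mice behind a library are not given in the sources used here.

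With 1 library a group there was no replicate, no test and no p-value. Every interval is a 95% interval that covers counting error only, and every difference is one between these libraries. Values are given in the order Vehicle, Vehicle-OVA, Ribavirin, Ribavirin-OVA unless stated. The comparisons of OVA under vehicle and under ribavirin share no library, whereas each of them shares its libraries with the comparisons of ribavirin.

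IgG in immune complexes is read by a balance of receptors. The activating receptors FcγRI, FcγRIII and FcγRIV signal through the common gamma chain (Fcer1g) and the kinase Syk towards phagocytosis and the oxidative burst, whereas FcγRIIB carries an inhibitory motif that recruits the phosphatase SHIP1 (Inpp5d). Interferon-gamma is known to favour activating receptors on myeloid cells and interleukin-4 to favour FcγRIIB. FcRn, the product of Fcgrt, pairs with beta-2 microglobulin and returns internalised IgG to the surface. FcγRIIB is the classical Fc gamma receptor of B cells, and FcγRIII that of NK cells.

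On the mouse genome (GRCm38, GENCODE M21) 3 of the genes lie side by side on chromosome 1: Fcgr2b on the minus strand (chr1:170960558-170976071), Fcgr4 on the plus strand (chr1:171018926-171029761) and Fcgr3 on the minus strand (chr1:171051169-171065915), with gaps of 42854 and 21407 bases between them. Fcgr1 lies on chromosome 3 (chr3:96282909-96293969, minus strand) and Fcgrt on chromosome 7 (chr7:45092993-45103822, minus strand). The reference starts of the genes are shown here because the activating genes and Fcgr2b differed in level between cell classes and libraries. Each promoter sequence is from RefSeq (GRCm38.p6) and runs 5′ to 3′ on the gene's strand, from 250 bases before to 50 after the listed start, with motif matches in capitals. The entry for Fcgr3 has 2 starts listed and lies inside the gene's span.

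Fcgr1: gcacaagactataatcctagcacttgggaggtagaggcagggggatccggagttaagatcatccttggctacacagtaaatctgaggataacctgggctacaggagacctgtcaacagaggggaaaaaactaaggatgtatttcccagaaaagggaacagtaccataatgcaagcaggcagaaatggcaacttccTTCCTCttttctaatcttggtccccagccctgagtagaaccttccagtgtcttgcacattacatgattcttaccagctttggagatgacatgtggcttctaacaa
Fcgr3: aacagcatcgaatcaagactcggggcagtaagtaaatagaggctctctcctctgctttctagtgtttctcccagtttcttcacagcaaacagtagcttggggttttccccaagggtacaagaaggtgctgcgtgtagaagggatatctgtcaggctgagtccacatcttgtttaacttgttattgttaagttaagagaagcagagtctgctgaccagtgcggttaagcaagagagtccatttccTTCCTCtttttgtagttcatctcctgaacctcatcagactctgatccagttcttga
Fcgr4: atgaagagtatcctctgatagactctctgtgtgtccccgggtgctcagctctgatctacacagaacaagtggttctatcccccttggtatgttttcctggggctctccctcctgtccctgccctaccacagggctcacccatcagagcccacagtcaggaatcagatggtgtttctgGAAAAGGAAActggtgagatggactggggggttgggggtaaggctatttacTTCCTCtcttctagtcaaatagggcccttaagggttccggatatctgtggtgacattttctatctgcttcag
Fcgr2b: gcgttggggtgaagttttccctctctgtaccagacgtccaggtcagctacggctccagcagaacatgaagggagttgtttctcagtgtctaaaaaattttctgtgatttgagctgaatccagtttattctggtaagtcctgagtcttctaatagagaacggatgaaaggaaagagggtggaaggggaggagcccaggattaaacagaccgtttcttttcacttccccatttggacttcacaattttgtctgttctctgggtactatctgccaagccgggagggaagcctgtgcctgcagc
Fcgrt: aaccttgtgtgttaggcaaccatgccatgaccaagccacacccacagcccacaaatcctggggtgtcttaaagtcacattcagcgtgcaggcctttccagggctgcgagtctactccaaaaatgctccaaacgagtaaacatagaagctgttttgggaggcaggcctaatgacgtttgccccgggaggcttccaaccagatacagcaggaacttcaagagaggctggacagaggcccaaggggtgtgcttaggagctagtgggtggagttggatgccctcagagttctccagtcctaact

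The motifs were searched on both strands among 32851 promoters of the same length. The PU box, GAGGAA, the letters bound by the myeloid factor PU.1, was found on the opposite strand (reading TTCCTC) in all 3 activating genes, its first base at -55 from the start in Fcgr1, at -6 in Fcgr3 and at -22 in Fcgr4. It was not found in the windows of Fcgr2b and Fcgrt, and 28.3% of all promoters held it. In Fcgr4 the letters of an interferon-stimulated response element (GAAA and GAAA with 2 bases between) stood as GAAAAGGAAA at -73, against 3.44% of promoters. The STAT6 type (TTC and GAA with 4 bases between), held by 6.95% of promoters, was in none of the 5 windows. A match of letters is a description and does not show binding.

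The libraries held between 91742940 and 171873110 UMIs in 10311 to 28277 barcodes, with a median of 3389 to 4952 UMIs per cell. After filters and removal of marked doublets 24260, 16963, 19629 and 8766 cells remained. Between 57 and 174 barcodes were shared by any pair of libraries (at most 0.909% of the smaller one). Cells were grouped in 43 clusters without the 5 receptor genes, and classes were named from marker lists that hold no Fc receptor. 11 classes had at least 50 cells in every library. Macrophage-like cells numbered 1933, 2228, 1524 and 1596, monocyte-like cells 3143, 435, 2476 and 406, and neutrophil-like cells 7009, 10910, 6572 and 2593. Neutrophil-like cells made up 64.3% of the cells of Vehicle-OVA, against 28.9% to 33.5% in the other libraries. 1 of the neutrophil-like clusters, led by Siglecf and Ltc4s (cluster 0, 6509 cells), held 6 of the 12 neutrophil markers and none among its top 10 genes.

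Most UMIs of the receptor genes came from phagocytes. Of the UMIs of Fcgr1, Fcgr2b, Fcgr3 and Fcgr4, between 88.2% and 95.8% in each library came from macrophage-like, monocyte-like and neutrophil-like cells together, whereas the same classes gave 51.7% to 77.6% of the Fcgrt UMIs. These classes also held many of the cells, in Vehicle-OVA 13.1%, 2.56% and 64.3% of the library. Their share of the UMIs of all genes was not computed. Levels are given as CPM, the part that a gene has of the UMIs of its class, put on 1 scale for all libraries. On it values of the same gene can be compared, whereas levels of different genes also depend on how well each transcript is captured at its 3′ end.

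Fcgr1, the high-affinity receptor, was highest in macrophage-like cells, at 241, 190, 189 and 130 CPM. Monocyte-like cells followed with 185, 152, 165 and 93.1 CPM, a range that overlapped that of macrophage-like cells. The third class, cDC-like cells (conventional dendritic cells), had 28.2 to 36.7 CPM. Neutrophil-like cells had 5.92 to 8.15 CPM, and the ranges of the 7 classes below overlapped one another in order. In ILC2-like cells Fcgr1 had no UMI in Ribavirin, which allows up to 6.93 CPM.

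Fcgr3, which encodes the broadly distributed activating receptor, had overlapping ranges in macrophage-like cells (702, 614, 712 and 638 CPM) and neutrophil-like cells (673, 689, 686 and 446 CPM), which was so for none of the other 4 genes. Monocyte-like cells had 544, 386, 603 and 328 CPM. NK-like cells, in which Fcgr3 is the known receptor, had 47.5, 38.4, 59.4 and 27.2 CPM, above T cell-like cells (9.31, 26.6, 12.5 and 7.23 CPM) in every library. The NK-like range overlapped that of B cell-like cells (40.6, 24.0, 44.9 and 27.6 CPM) and of epithelial-like cells (8.34 to 39.0 CPM).

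Fcgr4, the activating receptor of myeloid cells, had 280, 246, 268 and 235 CPM in macrophage-like, 196, 305, 205 and 250 CPM in monocyte-like, and 214, 125, 181 and 170 CPM in neutrophil-like cells. These 3 classes overlapped with their neighbours, and cDC-like cells stood apart at 34.7 to 35.4 CPM.

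Fcgr2b, the inhibitory receptor, had 682, 1297, 653 and 1290 CPM in macrophage-like cells. The OVA libraries were both high and the others both low. Monocyte-like cells had 717, 515, 766 and 346 CPM, with the OVA libraries low. cDC-like cells had 144 to 188 CPM, B cell-like cells 106 to 132 CPM, neutrophil-like cells 45.9, 125, 48.2 and 169 CPM, and pDC-like cells (plasmacytoid dendritic cells) 22.2, 95.04, 27.4 and 87.3 CPM. T cell-like cells, which should lack the gene, had 9.13, 15.3, 7.63 and 17.1 CPM.

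Fcgrt had another order. Macrophage-like cells (131, 131, 106 and 227 CPM), cDC-like cells (94.9, 118, 104 and 148 CPM) and pDC-like cells (56.2, 108, 65.9 and 83.7 CPM) led, each overlapping the next. Monocyte-like cells had 30.0 to 37.8 CPM and neutrophil-like cells 1.67 to 5.14 CPM, the latter range spanning that of T cell-like cells (2.48 to 4.48 CPM).

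**Figure D1:**
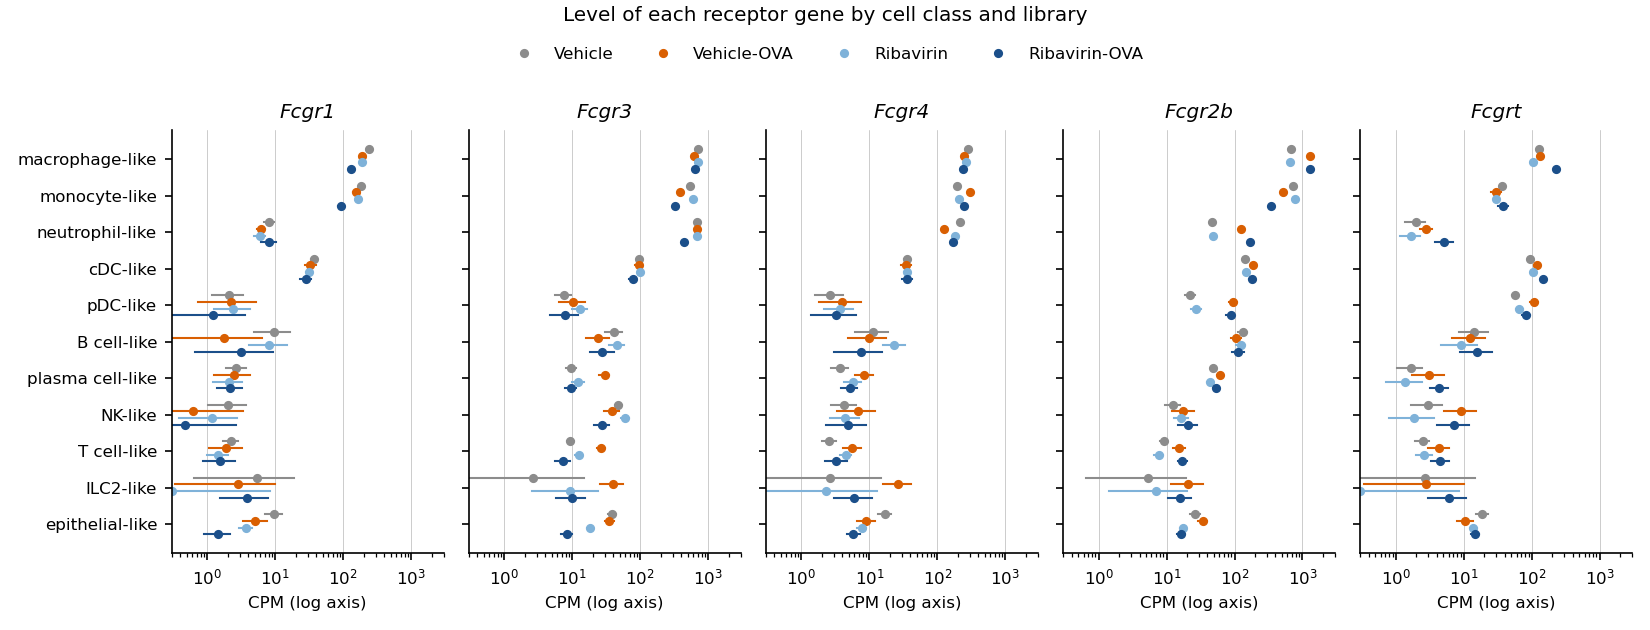
Level of each receptor gene by cell class in the 4 libraries, in CPM on a log axis, with exact Poisson 95% intervals for counting error only; a class with no UMI is drawn at the left edge, 0.3 CPM. Fcgr3 and Fcgr4 are high in the 3 phagocyte classes, and Fcgr1 in macrophage-like and monocyte-like cells. Fcgr2b of macrophage-like cells is at 1297 and 1290 CPM with OVA against 682 and 653 CPM without, and Fcgrt extends to both dendritic classes.

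The genes whose levels were most like those of the receptors were taken over 44 sums of class and library among 13129 genes, by Pearson's r of log2(CPM + 10), with no p since classes share libraries and depth. For Fcgr1 they were Ccl2, C1qa and Csf1r (r = 0.969, 0.964 and 0.961), for Fcgr2b Ctss, Gm6377 and Csf1r (0.921, 0.918 and 0.916), and for Fcgr3 Igsf6, Fcgr4 and Clec4n (0.966, 0.966 and 0.960). Those of Fcgr4 were Hacd4, Igsf6 and Clec4a2, and those of Fcgrt were Myo9a, Zfp385a and Cttnbp2nl.

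To set the activating receptors against the inhibitory one, Fcgr2b was taken as a share of the UMIs of Fcgr1, Fcgr2b, Fcgr3 and Fcgr4. In macrophage-like cells the share was 35.8%, 55.3%, 35.8% and 56.3%. The inhibitory gene therefore outnumbered the 3 activating genes together in both OVA libraries and in neither of the others, with 1.79, 0.809, 1.79 and 0.777 activating UMIs per Fcgr2b UMI. In neutrophil-like cells the share was 4.88%, 13.2%, 5.23% and 21.3%, so that activating UMIs stayed in the majority in every library. Monocyte-like cells went the other way, with 43.7%, 37.9%, 44.0% and 34.0%. In pDC-like cells the share was 64.7%, 85.3%, 59.0% and 87.8%, and in cDC-like cells 46.1%, 53.7%, 46.7% and 55.9%. B cell-like cells had between 61.8% and 74.8%.

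**Figure D2:**
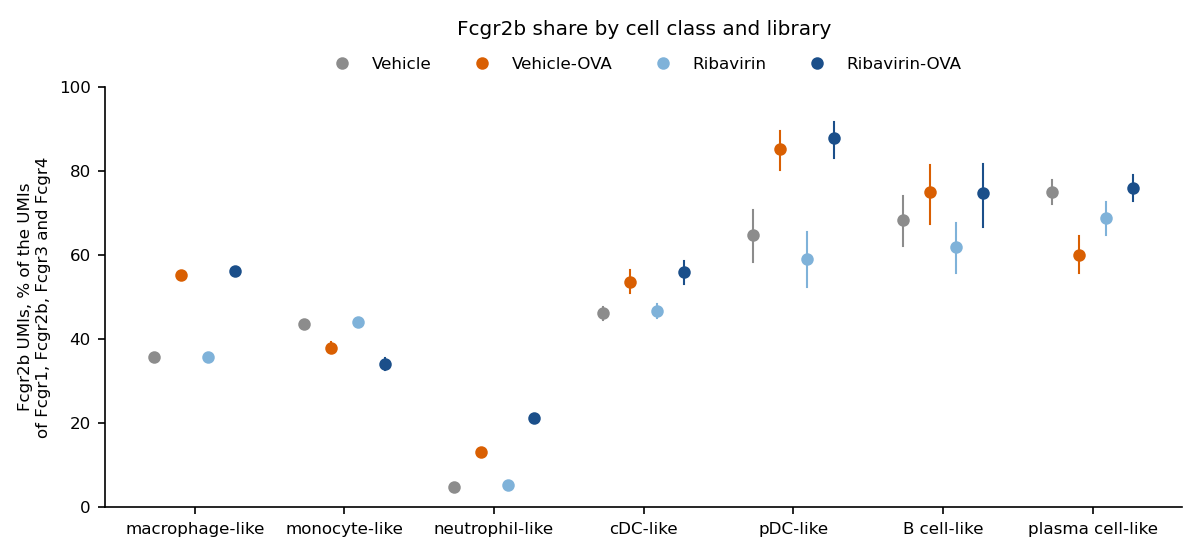
Fcgr2b UMIs as a percent of the UMIs of Fcgr1, Fcgr2b, Fcgr3 and Fcgr4 by cell class and library, with exact Clopper-Pearson 95% intervals for counting error only. Macrophage-like cells sit at 35.8% without OVA and at 55.3% and 56.3% with OVA, neutrophil-like cells move from about 5% to 13.2% and 21.3%, and monocyte-like cells are lower with OVA.

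In macrophage-like cells the Fcgr2b level was higher with OVA, and the sum of the activating genes was lower, at 1223, 1050, 1169 and 1003 CPM. Fcgr2b was 1.90 times as high with OVA under vehicle (interval 1.86 to 1.94) and 1.98 times under ribavirin (1.93 to 2.02), both just short of 2-fold. Fcgr1 was lower, at 0.786 times (0.755 to 0.819) and 0.687 times (0.651 to 0.726). The ratios of Fcgr3 (0.875 and 0.896) and Fcgr4 (0.878 and 0.877) were also below 1. The ratio of activating to inhibitory UMIs was 0.451 times as high with OVA under vehicle (0.439 to 0.463) and 0.434 times under ribavirin (0.421 to 0.448), that is -1.15 and -1.20 on the log2 scale. Both values rest on 1 pair of libraries each. At a coarser clustering, where the class kept 186 and 165 cells of the OVA libraries, they were -0.35 and -0.64.

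Past 2-fold stood 0 of 5 receptor genes under vehicle and 1 of 5 under ribavirin, Fcgrt. Of all 11810 genes measured in macrophage-like cells, 10.7% were at least 2-fold higher and 5.33% at least 2-fold lower with OVA under vehicle, and 8.08% and 3.77% under ribavirin, so the count of receptor genes does not stand out. The median log2 ratio of the receptor genes was -0.19 and -0.16, against 0.19 and 0.21 over all genes.

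Fcgrt differed between the arms. It was 1.01 times as high with OVA under vehicle (0.955 to 1.06) and 2.14 times under ribavirin (2.02 to 2.27). Its level in Ribavirin-OVA was 1.73 times that in Vehicle-OVA (1.65 to 1.81), whereas its partner gene B2m was at 0.994 and 1.01 times with OVA.

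The class was not held by the same clusters in the 4 libraries. Cluster 5, led by Ccl24, Arg1 and Slc7a2, held 93.9% of the macrophage-like cells of Vehicle-OVA and 91.0% of Ribavirin-OVA, but 1.66% of Vehicle and 4.79% of Ribavirin. Cluster 6, led by Ccl7, Ccl12 and Vcam1, held most of the others. The summed level of the 11 macrophage markers, all with UMIs, was 67875, 19240, 64289 and 24590 CPM in the class. The 9 monocyte markers, all with UMIs, summed to 468, 1716, 445 and 1230 CPM, high in the same libraries as Fcgr2b, and the 12 neutrophil markers to 640, 2714, 1094 and 800 CPM. The part of this composition and of these markers in the class values was not tested, and values within clusters are given in its place.

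Within cluster 6, Fcgr2b was at 677 and 633 CPM without OVA and at 1155 and 1158 CPM with it (135 and 144 cells), which is 1.71 times (1.62 to 1.79) and 1.83 times (1.75 to 1.92). The Fcgr2b share there was 35.6%, 46.2%, 35.0% and 50.1%. The difference was thus present in the cluster that both conditions share, though smaller in the balance of receptors, at -0.64 and -0.90 on the log2 scale. The OVA cells of cluster 6 were themselves not the same, with 167 and 421 CPM of Arg1 against 2.92 and 7.58 CPM, and 41374 and 44864 CPM of the macrophage markers against 68534 and 66128 CPM.

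Within cluster 5 the shares were 56.0% in Vehicle-OVA, 52.4% in the 73 cells of Ribavirin and 57.0% in Ribavirin-OVA, so that the few cells of this kind without OVA were nearer to the OVA cells than to cluster 6 of their own library. Their Fcgr2b level was 1087 CPM, against 1308 and 1306 CPM in the OVA libraries.

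Fcgrt followed another course in these clusters. In cluster 6 it was at 132, 356, 109 and 348 CPM, or 2.69 times (2.45 to 2.95) and 3.19 times (2.91 to 3.49) as high with OVA in the vehicle and ribavirin arms. In cluster 5 it was at 115 CPM in Vehicle-OVA and 212 CPM in Ribavirin-OVA, a ratio of 1.84 (1.75 to 1.94). With OVA under ribavirin, Fcgrt of cluster 5 was 6.43 times (4.31 to 10.05) as high, on 73 cells without OVA. Under vehicle no such ratio was taken, since Vehicle had 32 cells in cluster 5. The class level of Vehicle-OVA was therefore mainly that of cluster 5, which stood below cluster 6 of the same library.

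**Figure D3:**
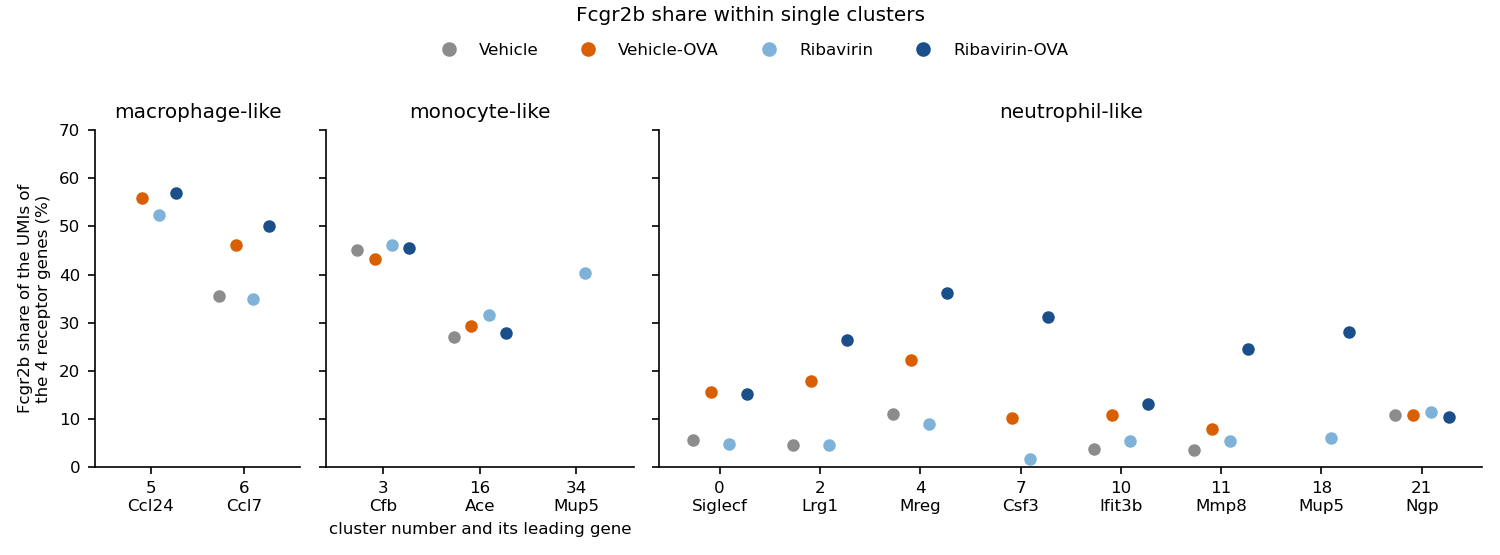
Fcgr2b share within single clusters of the 3 phagocyte classes by library, in percent, with 1 point for each library that has at least 50 cells in the cluster and clusters given by number and leading gene. In macrophage-like cluster 6 the OVA libraries sit at 46.2% and 50.1%, above 35.6% and 35.0%, whereas in monocyte-like clusters 3 and 16 the libraries of a cluster lie close together.

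In monocyte-like cells Fcgr1, Fcgr3 and Fcgr2b were lower with OVA in both arms, and Fcgr4 was higher. Fcgr2b was 0.718 times as high under vehicle (0.686 to 0.752) and 0.452 times under ribavirin (0.427 to 0.478), and Fcgr3 0.709 and 0.543 times. Fcgr4 was 1.55 times (1.46 to 1.65) and 1.22 times (1.13 to 1.31) as high. The median log2 ratio over all genes of the class was 0.26 and 0.30, so Fcgr4 stood 0.37 above it under vehicle and, at -0.016 relative to it, at the level of the middle gene under ribavirin. The ratio of activating to inhibitory UMIs was 1.27 times (1.20 to 1.34) and 1.53 times (1.42 to 1.64) as high. With cells assigned one by one from marker UMIs, the value under vehicle turned, from 0.34 to -0.17 on the log2 scale. Past 2-fold stood 0 of 5 genes under vehicle and 1 of 5 under ribavirin (Fcgr2b, lower). Of all 11023 genes 10.8% were at least 2-fold higher and 4.24% lower under vehicle, and 11.4% and 3.91% under ribavirin.

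The difference in the Fcgr2b share was smaller within the clusters. Cluster 3, led by Cfb, Ly6i and Cxcl9, had Fcgr2b shares of 45.1%, 43.3%, 46.1% and 45.5%, and cluster 16, led by Ace, Vcan and Ear2, had 26.9%, 29.2%, 31.6% and 27.9%. The log2 ratio of activating to inhibitory UMIs with OVA was 0.11 and 0.04 in cluster 3 and -0.16 and 0.26 in cluster 16, under vehicle and ribavirin. The Fcgr2b level itself was at 1.15 and 0.827 times in cluster 3 and at 0.787 and 0.594 times in cluster 16. Cluster 3 held 85.5%, 43.2%, 71.4% and 26.1% of the class and cluster 16 14.1%, 56.8%, 20.2% and 73.2%. The 11 macrophage markers summed to 17249, 5255, 16532 and 4406 CPM in monocyte-like cells, moving with Fcgr2b. The 9 monocyte markers summed to 5305, 7964, 5335 and 6629 CPM there. In cluster 3 without OVA the macrophage markers were at 18648 and 18279 CPM, and in macrophage-like cluster 5 with OVA at 17612 and 22062 CPM. By these markers the class names thus overlap between libraries. The part of the markers in the Fcgr2b levels was not tested. The Fcgr4 difference was found in cluster 3, where the gene was 2.13 times (1.96 to 2.32) and 1.31 times (1.14 to 1.49) as high with OVA. In cluster 16 it was 0.789 times (0.708 to 0.879) and 1.08 times (0.976 to 1.20) as high.

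Neutrophil-like cells had the largest ratio of Fcgr2b among the 3 phagocyte classes. It was 2.72 times as high with OVA under vehicle (2.53 to 2.92) and 3.50 times under ribavirin (3.23 to 3.79). Fcgr3 was at 1.02 times (1.00 to 1.05) and 0.651 times (0.628 to 0.674), and Fcgr4 at 0.586 times (0.561 to 0.611) and 0.941 times (0.886 to 0.999). The ratio of activating to inhibitory UMIs was 0.337 times (0.313 to 0.363) and 0.205 times (0.188 to 0.223) as high.

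Past 2-fold stood 1 of 5 receptor genes under vehicle (Fcgr2b) and 2 of 5 under ribavirin (Fcgr2b and Fcgrt), all higher. Among all 11246 genes 6.41% were at least 2-fold higher and 31.7% lower under vehicle, and 6.9% and 2.61% under ribavirin. The median log2 ratio over all genes was -0.61 under vehicle, so genes of this class in Vehicle-OVA stood low as a whole against Vehicle, and relative to that median Fcgr2b was 2.06 higher on the log2 scale. Under ribavirin the median was 0.26 and Fcgr2b stood 1.55 above it. In the order of all genes Fcgr2b was at percentile 96.3 and 99.4. Fcgrt had 2.83 and 5.14 CPM in the OVA libraries, close to the level of T cell-like cells.

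The class was held by different clusters. Clusters 0 and 2 held 42.5% and 34.6% of it in Vehicle, 31.5% and 37.1% in Ribavirin and 34.9% and 19.1% in Ribavirin-OVA, whereas in Vehicle-OVA clusters 4, 7 and 11 (led by Mreg, Csf3 and Mmp8) held 34.8%, 28.4% and 19.3%. The higher Fcgr2b level was spread over the neutrophil-like clusters. Under vehicle it was higher with OVA in 6 of 6 clusters with 50 cells in both libraries, in 5 of them with an interval above 1. Under ribavirin it was higher in 7 of 8, all 7 with such an interval. In cluster 2, led by Lrg1, the Fcgr2b share was 4.59%, 17.9%, 4.58% and 26.3%, and in cluster 0, led by Siglecf, 5.47%, 15.6%, 4.80% and 15.2%. In cluster 4 it was 10.9%, 22.2%, 8.81% and 36.2%. Cluster 21, led by the granule genes Ngp and Camp of immature neutrophils, was the exception, with 10.7%, 10.7%, 11.4% and 10.4%. Fcgr2b was there at 45.0, 55.7, 56.7 and 48.1 CPM.

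Other genes of macrophages were set beside these values, since RNA of a neighbouring cell can enter a droplet. Fcgr2b of neutrophil-like cells stood at 6.73%, 9.62%, 7.38% and 13.1% of the macrophage-like level of the same library, whereas the macrophage genes C1qa, C1qb and C1qc together stood at 0.940%, 1.51%, 1.18% and 1.52%. Arg1, at 4068 and 3226 CPM in macrophage-like cells of the OVA libraries, stood at 1.12% and 1.16% of that level in neutrophil-like cells. The T cell-like level of Fcgr2b was at 1.34%, 1.18%, 1.17% and 1.33%. It too was higher with OVA, 1.68 times (1.33 to 2.10) under vehicle and 2.24 times (1.80 to 2.79) under ribavirin. The part of RNA from other cells in the neutrophil-like levels was not tested. Their 8 eosinophil markers summed to 7.03 to 16.5 CPM, 6 of them with UMIs.

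Cluster 10 of the neutrophil-like cells, led by the interferon-induced gene Ifit3b, had the highest Fcgr4 levels, at 527, 480, 472 and 555 CPM. Its Fcgr1 was at 23.6, 66.3, 18.3 and 66.1 CPM, which is 2.81 times (2.02 to 3.90) and 3.60 times (2.30 to 5.66) as high with OVA. In the class as a whole Fcgr1 was at 0.752 and 1.35 times. Cluster 29, which received no class name and is led by Crybb1, Sall1 and Sall3, had the highest Fcgr3 level of any cluster, at 1115 CPM in Vehicle and 1015 CPM in Ribavirin, and a low Fcgr2b share, at 25.1% and 27.0%.

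Plasmacytoid dendritic cells carried little of the activating genes. Their sum was 12.1, 16.4, 19.1 and 12.2 CPM in pDC-like cells. Fcgr2b was 4.28 times as high with OVA under vehicle (3.47 to 5.29) and 3.19 times under ribavirin (2.56 to 3.99). It stood at 3.25%, 7.33%, 4.19% and 6.77% of the macrophage-like level, and the 3 C1q genes at 0.471%, 1.12%, 0.448% and 0.636%. Fcgrt was 1.93 times (1.64 to 2.26) and 1.27 times (1.06 to 1.52) as high. The median log2 ratio over all genes of the class was 0.33 and 0.27. In cDC-like cells Fcgr2b was 1.31 and 1.22 times and Fcgrt 1.25 and 1.42 times as high with OVA, but there the median log2 ratio over all genes was 0.36 and 0.39. Relative to it Fcgr2b was at 0.03 and -0.10 and Fcgrt at -0.04 and 0.12, near the middle gene of the class.

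Ribavirin against vehicle gave smaller differences without OVA. The ratio of activating to inhibitory UMIs was 0.998 times as high in macrophage-like (0.967 to 1.03), 0.985 in monocyte-like (0.959 to 1.01) and 0.929 in neutrophil-like cells (0.848 to 1.02), all with intervals that include 1. With OVA it was 0.961 (0.936 to 0.986) in macrophage-like, 1.18 (1.09 to 1.29) in monocyte-like and 0.564 (0.528 to 0.602) in neutrophil-like cells. In neutrophil-like cells of Ribavirin-OVA Fcgr3 was 0.648 times (0.627 to 0.671) and Fcgr2b 1.35 times (1.27 to 1.43) the level of Vehicle-OVA, where the median log2 ratio over all genes was 0.72. Fcgr1 of macrophage-like cells was lower with ribavirin in both settings, at 0.782 times (0.747 to 0.818) without and 0.683 times (0.649 to 0.719) with OVA, and within cluster 6 it was 0.786 and 0.774 times as high.

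**Figure D4:**
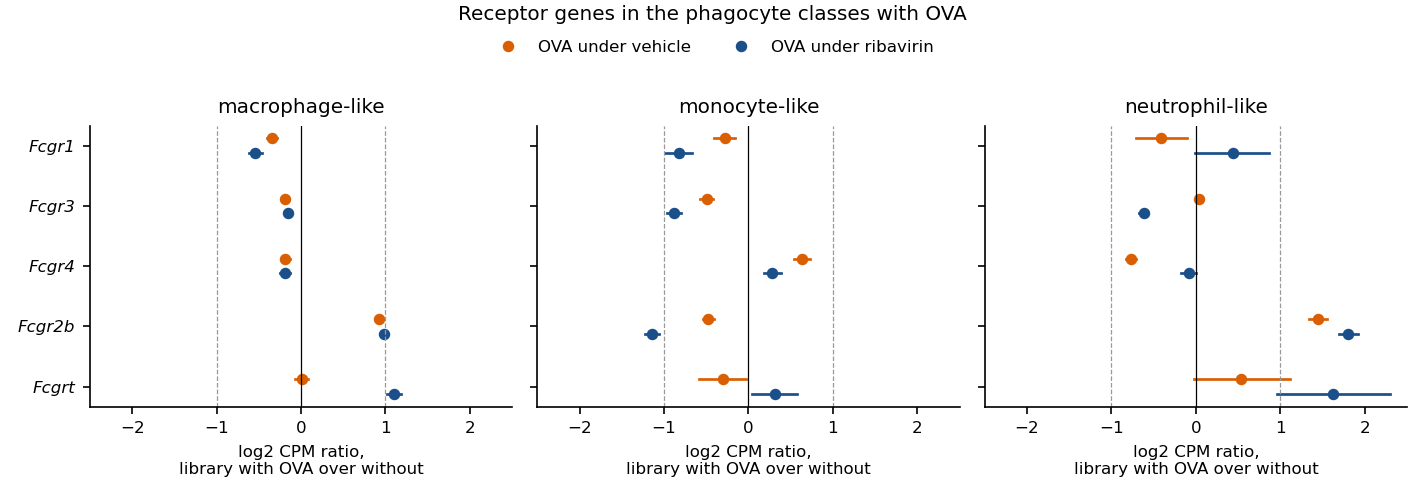
Log2 ratio of the CPM of each receptor gene, library with OVA over library without, in macrophage-like, monocyte-like and neutrophil-like cells under vehicle and ribavirin, with exact conditional binomial 95% intervals for counting error only and dashed lines at 2-fold. Fcgr2b lies at 0.93 and 0.98 in macrophage-like and at 1.44 and 1.81 in neutrophil-like cells, and at -0.48 and -1.15 in monocyte-like cells.

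Single cells were compared after each was thinned to 1000 UMIs, since depth differed (median 9028 to 10467 UMIs in macrophage-like, 2305 to 2929 in neutrophil-like and 4072 to 5049 in T cell-like cells). Among macrophage-like cells, those with an Fcgr2b UMI made up 45.2%, 66.8%, 44.6% and 65.0% (94.6%, 93.8%, 93.7% and 91.7% before thinning). In neutrophil-like cells it was 4.23%, 11.3%, 4.58% and 14.5% (9.83%, 24.04%, 11.7% and 28.9% before). T cell-like cells, as the background, had 0.884%, 1.48%, 0.731% and 2.27% (3.74%, 7.19%, 3.86% and 9.25% before). Macrophage-like and neutrophil-like cells were above that background in every library. Cells with fewer than 1000 UMIs were left out, which took 3, 110, 0 and 86 cells of the macrophage-like class, 176, 579, 0 and 182 of the neutrophil-like and 91, 41, 0 and 36 of the T cell-like.

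Macrophage-like cells with UMIs of an activating gene and none of Fcgr2b made up 35.4%, 17.6%, 35.2% and 18.3% after thinning, and those with Fcgr2b and no activating UMI 12.95%, 27.9%, 15.4% and 27.2%. Before thinning the latter were 0.517%, 6.10%, 0.853% and 5.20%, so nearly all macrophage-like cells had UMIs of both kinds at full depth (94.1%, 87.7%, 92.8% and 86.5%). A cell with 1 kind after thinning is therefore mostly one in which the other was not sampled. Neutrophil-like cells were mainly cells with activating UMIs only, at 52.9%, 43.4%, 52.4% and 34.7% after thinning.

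**Figure D5:**
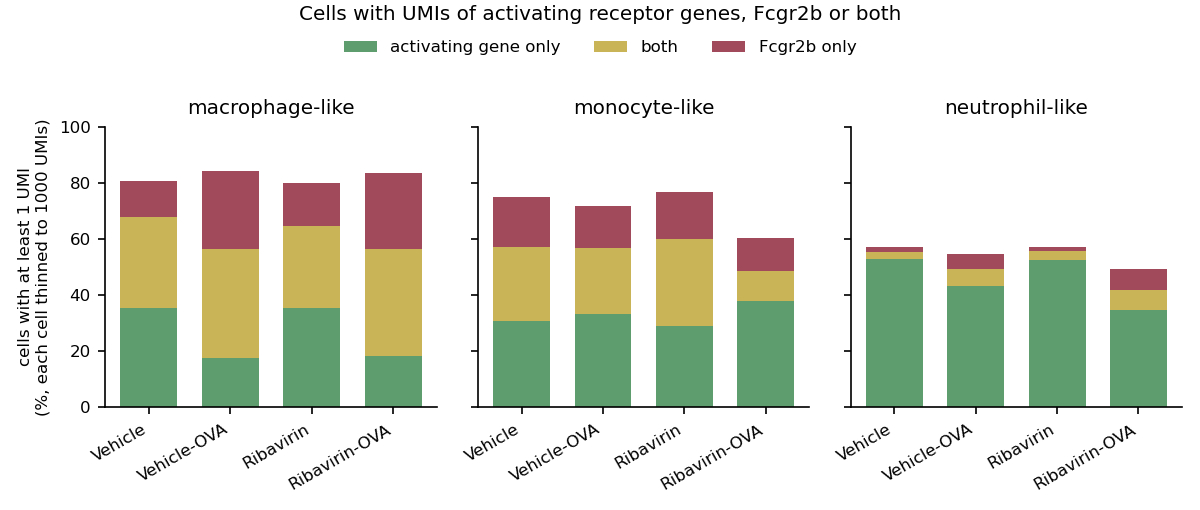
Cells with at least 1 UMI of an activating receptor gene only, of both kinds, or of Fcgr2b only, as stacked percent of the cells of a class, each cell thinned to 1000 UMIs; cells with none make up the rest to 100%. With OVA the Fcgr2b-only share of macrophage-like cells is 27.9% and 27.2%, against 12.95% and 15.4% without.

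A list of 44 other genes held those of Fc receptor signalling and related ones, with 8 induced by interleukin-4 and 8 by interferon-gamma. Of the 42 measured in macrophage-like cells, 9 were at least 2-fold higher and 4 lower with OVA under vehicle, and 9 and 5 under ribavirin. The interleukin-4 genes gave 6 of the 9 higher under vehicle and 7 of the 9 under ribavirin. Over all genes of the class 10.7% were higher and 5.33% lower under vehicle, and 8.08% and 3.77% under ribavirin. The median log2 ratio of the list was 0.00 and 0.02, against 0.19 and 0.21 over all genes. Fcer1g, the chain that the activating receptors need, was at 3183, 1788, 3076 and 1395 CPM, or 0.562 and 0.453 times as high with OVA. It was lower in monocyte-like cells too (0.558 and 0.485 times) and in neutrophil-like cells (0.356 and 0.469 times). In neutrophil-like cells the median log2 ratio over all genes was -0.61 and 0.26. Outside the phagocytes Fcer1g was lower as well, at -0.84 and -0.89 on the log2 scale in cDC-like cells. In pDC-like cells it was at 776, 523, 794 and 463 CPM, and in T cell-like cells at 65.7, 69.3, 80.9 and 40.6 CPM.

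Of the 9 kinases and effectors, 1 was past 2-fold in macrophage-like cells, the Src-family kinase Fgr, at 4.58 and 3.38 times. Syk was at 1.90 and 1.33 times. Of the 4 phosphatases and adaptors of the inhibitory pathway none was past 2-fold, with Inpp5d at 1.24 and 1.32 times, and none of the 6 oxidase genes was.

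The genes that interleukin-4 induces were at least 2-fold higher in 6 of 8 under vehicle and in 7 of 8 under ribavirin, where 10.7% and 8.08% of all genes were. Mrc1, the mannose receptor, was at 478, 1331, 420 and 1452 CPM, and Retnla at 0.544, 234, 1.10 and 957 CPM. Arg1, Ccl24 and Mrc1, which are in this list, are among the 10 leading genes of cluster 5, which held most of the OVA cells. Within cluster 6 Arg1 was at 167 and 421 CPM with OVA, against 2.92 and 7.58 CPM without. The part of the cluster composition in the class levels of these genes was not tested. Of the 8 genes that interferon-gamma induces 0 were 2-fold higher and 2 lower in each arm, Cxcl9 and Ciita under vehicle, and Cxcl9 and Cxcl10 under ribavirin, where 5.33% and 3.77% of all genes were lower.

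In monocyte-like cells 9 of the 42 listed genes measured were past 2-fold higher and 5 lower under vehicle, where 10.8% and 4.24% of all genes were. Under ribavirin 6 were higher and 7 lower, where 11.4% and 3.91% were. The interleukin-4 genes gave 4 of the 9 higher under vehicle and 3 of the 6 under ribavirin. They were mixed, since 2 of the 8 were at least 2-fold lower in each arm. Their median log2 ratio was 1.93 and 0.12, against 0.26 and 0.30 over all genes of the class. Fgr was again among those higher, at 2.28 and 2.05 times. In neutrophil-like cells 5 were higher and 11 lower under vehicle, where 6.41% and 31.7% of all genes were, so the lower genes do not stand out. Under ribavirin 10 were higher and 3 lower, against 6.9% and 2.61% of all genes. The interleukin-4 genes gave 4 of the 5 higher under vehicle and 6 of the 10 under ribavirin. In each arm 1 of the 8 was at least 2-fold lower. Arg1, which is among the 8, had a neutrophil-like level of 0.516, 45.6, 1.02 and 37.4 CPM. Its T cell-like level was 6.51, 31.4, 41.3 and 29.5 CPM. How much of these counts came from RNA of neighbouring cells was not tested. Cybb, the catalytic oxidase subunit, was at 1.87 and 3.58 times in the neutrophil-like class.

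Fcgr2b and Fcgr3 are near copies in part of their sequence. Of the 50-base stretches of the annotated coding Fcgr3 transcripts 166 (10.2%) are also in Fcgr2b, where they make up 4.48%. None of them lies in the last 500 bases of the longest transcript of either gene, the end that the poly-A primed reads come from. The ends of the other transcripts were not searched (3 coding transcripts of Fcgr3 and 4 of Fcgr2b are annotated). No other pair of the 5 genes shared a stretch of that length.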

How the data were processed

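Single-cell RNA was measured in 4 libraries, 1 per group. Per the labels, nasal mucosa was digested, CD45+ cells were isolated magnetically (the series text names fluorescence-activated sorting) and poly-A RNA was tagged with barcodes and UMIs. The authors deposited whole-number UMI counts per gene and barcode. The submitters' processing notes name Cell Ranger 5.0.0 and mm10, and the annotation behind the counts is not given in the sources used here. 27998 genes are listed.

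A cell had to have 200 genes, 500 UMIs and a mitochondrial share under 10%. Doublets were marked by simulated doublets (5.70%, 3.06%, 3.20% and 0.578% of cells for Vehicle, Vehicle-OVA, Ribavirin and Ribavirin-OVA, against 11.3%, 7.66%, 8.56% and 4.12% expected, with the threshold of Vehicle-OVA taken as the mean of the others), so doublets remain. All libraries were clustered together (2000 variable genes without the 5 receptor genes, 30 principal components, 15 neighbours, Leiden resolution 1, no batch correction, leidenalg 0.10.2 in Python 3.11.15). Clusters were named by marker lists, and because names are rebuilt here, they may differ from the study's. CPM were computed from the summed UMIs of a class in a library, with exact Poisson, Clopper-Pearson and conditional binomial 95% intervals (SciPy 1.17.1). The interval of the activating to inhibitory ratio is a normal one on the log odds ratio. Receptor genes needed 20 UMIs for a ratio, and ratios over all genes used a pseudocount of 1 CPM and genes that reached 50 UMIs in the class with the 4 libraries summed. Called means past 2-fold. Where no UMI was found, the limit is 3 UMIs. No test was made. The ratio script was tested on simulated data.

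The genes, the marker and pathway lists and the tests were chosen with earlier results of these data known. Genes named are the 5 receptor genes, for each the 3 genes with the most similar levels, the pathway and marker lists and the 3 leading genes of a named cluster. Gm6377 and other symbols are as the files give them. Alternatives were other cell filters, clusterings, class definitions and scalings.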

Additional observations from a re-analysis of the deposited data

Results flagged for a closer look

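With 1 library per group none of the differences below was tested, and the values are log2 ratios with OVA. Between arms, a ratio was picked if its whole interval lay above 0 in 1 arm and below 0 in the other. For this, 42 ratios of receptor genes and 9 ratios of activating to inhibitory UMIs were looked at. Ratios that changed sign with an interval that includes 0 were not picked. Macrophage-like and monocyte-like cells were compared in addition, and their ratio of activating to inhibitory UMIs was picked where the values alone had opposite signs. In all, 7 were flagged.

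In T cell-like cells Fcgr3 had 1.52 under vehicle and -0.79 under ribavirin, a difference of -2.30, and the ratio of activating to inhibitory UMIs had 0.54 and -1.78, a difference of -2.31. The 12 neutrophil markers, all with UMIs there, summed to 578, 2223, 955 and 437 CPM in T cell-like cells of Vehicle, Vehicle-OVA, Ribavirin and Ribavirin-OVA, and neutrophil-like cells made up 28.9%, 64.3%, 33.5% and 29.6% of the libraries. The part of either in the T cell-like values was not tested. In plasma cell-like cells the ratio of activating to inhibitory UMIs had 0.99 and -0.51, a difference of -1.51, with most cells of the class in cluster 15 without OVA (1123 and 547 cells, against 3 and 2 with OVA) and in cluster 23 with OVA (213 and 341, against 7 and 7), and the neutrophil markers summed to 518, 1888, 1015 and 463 CPM.

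Fcgr3 of neutrophil-like cells had 0.03 under vehicle and -0.62 under ribavirin, a difference of -0.65, where the median of all genes was -0.61 and 0.26. Fcgrt of monocyte-like cells had -0.30 and 0.32, a difference of 0.61.

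Between classes, the ratio of activating to inhibitory UMIs had -1.15 in macrophage-like and 0.34 in monocyte-like cells under vehicle, a difference of 1.49. Under ribavirin it had -1.20 and 0.61, a difference of 1.81.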

How the results depend on the processing

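All values are log2 ratios of activating to inhibitory UMIs unless stated, and the cause of a change was not tested. No paired analysis was possible because each group has 1 library and the labels number no replicates. For OVA in macrophage-like cells under vehicle (-1.15) and ribavirin (-1.20) the direction held under every alternative run. The values moved to -0.35 and -0.64 at resolution 0.5, where the class kept 186 and 165 OVA cells, to -0.98 and -1.01 at resolution 2.0, to -1.0 and -1.07 with the receptor genes among the variable genes, and to -0.87 and -0.88 with cells assigned from their own marker UMIs. With CPM averaged over cells the vehicle value was -1.22, and the ribavirin value was -0.91 when libraries were clustered separately. For ribavirin without OVA (0.00) the value was -0.25 with separate clustering, and for ribavirin with OVA (-0.06) it was -0.29 at resolution 0.5, -0.0046 at resolution 2.0 and 0.0090 with separate clustering. In monocyte-like cells OVA under vehicle (0.34) gave 0.45 at resolution 0.5, 0.13 with separate clustering and, with the direction turned, -0.17 from marker UMIs. Under ribavirin (0.61) it gave 0.49 and 0.19 in the last 2 of these. In neutrophil-like cells the values -1.57 and -2.29 became -1.39 and -2.16 in cells with at least 2000 UMIs and -1.86 and -2.59 with CPM averaged over cells, and the ribavirin value was -1.61 from marker UMIs. 4 alternatives were chosen after seeing the data: without the clusters led by Mup5 (1 of which drew 85.8% of its 1021 cells from Ribavirin), without shared barcodes, without the cluster led by Siglecf, and with macrophage- and monocyte-like cells together. The last gave -0.80 and -0.81 for OVA, and leaving out the Siglecf cluster gave -2.41 in neutrophil-like cells under ribavirin. Over the ratios of single receptor genes with OVA the direction was the same in 387 of 410 alternatives, and for Fcgr2b in 80 of 82. The exceptions for Fcgr2b were both in monocyte-like cells under vehicle, with separate clustering and from marker UMIs. Its log2 ratio there was -0.48 and reached 0.14. That of Fcgr1 in the same cells and arm was -0.28 and turned to 0.63 with separate clustering. Counts of genes past 2-fold, which give the background, fell by more than 1.5 times with a pseudocount of 10 CPM in all 12 counts (for macrophage-like cells under vehicle from 1266 to 590 higher and from 629 to 230 lower). A minimum of 500 UMIs per gene lowered 5 of the 12 by as much. Depth limits Fcgr1 and Fcgrt of neutrophil-like cells most, at under 10 CPM.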
